A study of Mus musculus with 6 samples.

Results

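Natural killer (NK) cell receptors are surface proteins that NK cells and many killer T cells use to read stress and class I molecules on other cells. The genes described here are 10 such receptors and coreceptors, chosen by name with earlier results of these data known. Klrd1, Klrc1, Klrc2, Klrk1, Klrb1c and Klre1 are lectin-like receptors of the NK gene complex on mouse chromosome 6. Klrg1 is a lectin-like receptor gene on the same chromosome, at 122247555 to 122259841, away from those genes. The others are Ncr1 and the immunoglobulin-family receptors Crtam and Cd226. All 10 were found among the 55416 genes of the count files, and all 10 passed the low-count filter, as did 14926 genes in all. RNA was sequenced from the CD3+ T cell fraction of spleens, in 3 libraries from allograft recipients and 3 from isograft recipients, an allograft coming from a genetically different donor and an isograft from an identical one. All recipients were wild-type C57BL/6 mice, and the purified cells of both groups were held in culture medium with serum and antibiotics, for a time not stated. The labels give neither the grafted organ, the donor strain, the age of the mice nor the time after grafting. The comparison asks how these receptor transcripts differ between recipients of an allograft and of an isograft.

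These receptors fall into groups by partner. CD94, the product of Klrd1, forms dimers with NKG2A (Klrc1), which inhibits, or with NKG2C (Klrc2), which activates through the adaptor DAP12, and both dimers bind the nonclassical class I molecule Qa-1. NKG2D (Klrk1) binds stress-induced ligands and signals through DAP10 and DAP12, KLRG1 is an inhibitory receptor for cadherins, and Klrb1c encodes NK1.1, the marker used to identify NK cells in C57BL/6 mice. Ncr1 encodes NKp46, an activating receptor of NK cells. CRTAM appears on activated T and NK cells and binds CADM1, and CD226 is an activating receptor that shares the ligands PVR and nectin 2 with the inhibitory receptor TIGIT.

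Library totals ran from 30066137 to 37821738 counts. Levels are given as CPM, a gene's count relative to a fixed library size, here adjusted with TMM factors, which are meant to even out differences in composition between libraries. Cd3e, a chain of CD3, had 79.1 ± 12.5 CPM in allograft and 122.6 ± 2.997 CPM in isograft libraries (SD, n = 3 each), and the 12 pan T cell markers summed to 1211 to 1332 and 1429 to 1475 CPM. Transcripts of other cells were present as well: the 9 B cell markers summed to 1250 to 1365 CPM in allograft and 1336 to 1449 CPM in isograft libraries, and the 12 myeloid markers to 301.1 to 314.1 and 304.3 to 310.4 CPM. Of the 12 pan T cell markers 3 rose and 6 fell, 75% of them against 57.8% of all tested genes, those with the smallest p being Cd5 at a log2 fold change of 1.38, Cd3d at -0.78 and Trbc2 at -0.94. Of the 9 B cell markers 2 rose and 5 fell, 77.8%, with the smallest p for Fcrla at -1.34, Cd79b at -0.87 and Cd79a at -0.78. Of the 10 myeloid markers tested 1 rose and 3 fell, 40%, with the smallest p for Lyz2 at -0.55, Cd68 at 0.54 and Csf1r at -0.62. With library totals in place of TMM, 3 pan T cell markers rose and 9 fell and 0 B cell markers rose and 6 fell, and 1 B cell marker rose without allograft replicate 1 or 2 or any 1 isograft library. In such bulk samples a lower level of a transcript can come from fewer cells of a type or from less RNA per cell, and these cannot be told apart.

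Among the 10 genes, Crtam and Klrc1 rose and Klrd1 and Cd226 fell in allograft libraries (edgeR's quasi-likelihood test, Benjamini-Hochberg adjusted p under 0.05 over all genes tested). The other 6 did not pass. Of all tested genes, 28.7% were called higher, 29.1% lower and 57.8% in either direction, beside 4 of these 10 genes. With only 10 genes, several of them at low counts, the difference between these shares was not tested. For 6 of the 10 genes the ranges of both groups were separate, with allograft libraries above for 2 and below for 4, while 63.3% of all tested genes had separate ranges, 31.3% with allograft above and 32.1% with allograft below. The median log2 fold change of the 10 genes was -0.27 and that of all genes tested -0.01.

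**Figure D1:**
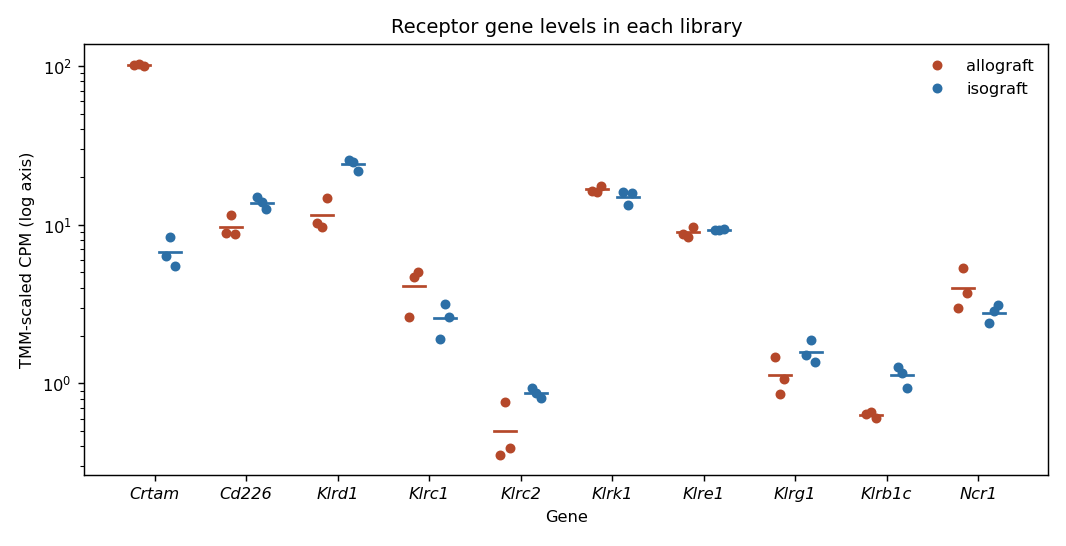
Levels of the 10 receptor genes, as TMM-scaled CPM on a log axis, with 1 point per library, a line at the mean of 3 libraries and allograft left of isograft for each gene. Crtam lies at 100.7 to 103.7 CPM in allograft and 5.46 to 8.36 CPM in isograft libraries, and Klrd1 is lower in every allograft library.

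Crtam was by far the most changed. Its CPM were 102.2, 103.7 and 100.7 in allograft replicates 1, 2 and 3, against 6.38, 8.36 and 5.46 in isograft replicates 1, 2 and 3. The counts behind these were 2833 to 3191 per allograft library and 175 to 339 per isograft library. The 3 allograft libraries differed from one another by only a few percent and all stood far above every isograft library. The log2 fold change, allograft minus isograft, was 3.91 ± 0.12 (SE), a 15.1-fold rise (edgeR adjusted p = 4.4e-14). By log2 fold change it ranked 32 of the 14926 tested genes, with 0.208% of them above it. Crtam (chromosome 9, 40880987 to 40915924, GRCm39, minus strand) shares no 50-base window of its annotated transcripts with another gene.

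Genes whose pattern over the 6 libraries was most like that of Crtam were Cdk5r1, an activator of the kinase CDK5, Egr1, a transcription factor of the immediate early response, Tnfsf11, the cytokine RANKL, Lipg, a lipase, and Il2ra, the interleukin 2 receptor alpha chain. Likeness was the root of the summed squared differences of centred log2 CPM, searched over 8812 other genes with a mean of at least 5 CPM, and the distances ran from 0.328 for Cdk5r1 to 0.667 for Il2ra. Cdk5r1 averaged 123.8 CPM in allograft and 8.99 CPM in isograft libraries, a log2 fold change of 3.78. The search mostly finds genes with a group difference of the same size, since that difference makes up most of the variation of Crtam.

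The other receptor of the nectin-binding group, Cd226 on chromosome 18, moved the other way. It had 8.81, 11.6 and 8.71 CPM in allograft replicates 1, 2 and 3, against 14.9, 13.9 and 12.6 CPM in isograft replicates 1, 2 and 3. Every allograft library was below every isograft library. The log2 fold change was -0.51 ± 0.13 (edgeR adjusted p = 0.0028), that is 1.42-fold lower in allograft libraries.

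Of the CD94 and NKG2 transcripts, that of CD94 fell and that of NKG2A rose. Klrd1 (chromosome 6, 129568745 to 129575738, plus strand) had 10.3, 9.69 and 14.7 CPM in allograft replicates 1, 2 and 3, against 25.6, 24.8 and 21.7 CPM in isograft replicates 1, 2 and 3. The groups did not overlap, although allograft replicate 3 stood above the other allograft libraries. The fall was 1.06 ± 0.14 on the log2 scale, 2.08-fold (edgeR adjusted p = 3.7e-06). Klrc1 (chromosome 6, 129642978 to 129655936, minus strand), the inhibitory partner, had 2.63, 4.66 and 5.05 CPM in allograft replicates 1, 2 and 3, against 1.91, 3.18 and 2.62 CPM in isograft replicates 1, 2 and 3. Allograft replicate 1 lay inside the isograft range, so the groups overlapped. Its log2 fold change of 0.67 ± 0.25 passed narrowly (edgeR adjusted p = 0.031). That call was lost without allograft replicate 2 (0.57, adjusted p = 0.11) or 3 (0.48, adjusted p = 0.15), without isograft replicate 1 (0.49, adjusted p = 0.13) or 3 (0.67, adjusted p = 0.071), with limma-voom (0.61, adjusted p = 0.059) and with library totals in place of TMM (0.45, adjusted p = 0.13).

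Klrc2 (chromosome 6, 129624459 to 129637652, minus strand), the activating partner and neighbour of Klrc1, was low, with 11, 22 and 11 counts in allograft replicates 1, 2 and 3 and 31, 35 and 26 counts in isograft replicates 1, 2 and 3. These are 0.352, 0.759 and 0.391 CPM in allograft and 0.937, 0.863 and 0.811 CPM in isograft libraries. All allograft libraries were lower, but at this depth the log2 fold change of -0.80 did not pass (95% interval -1.71 to 0.12, edgeR adjusted p = 0.13). Of the counts of Klrc1 and Klrc2 together, Klrc1 held 88.2%, 86.0% and 92.8% in allograft replicates 1, 2 and 3, against 67.0%, 78.7% and 76.4% in isograft replicates 1, 2 and 3. The means were 89.0% ± 3.48 in allograft and 74.0% ± 6.16 in isograft libraries (SD, n = 3 each), a difference of 14.98 percentage points (exact permutation test, two-sided, p = 0.1, the smallest that 3 against 3 libraries allow). With counts divided by gene length, Klrc2 having 5812 exon bases and Klrc1 1984, the difference was 6.73 percentage points. The exact Clopper-Pearson 95% interval of a single library's share, which covers counting error only, was widest for isograft replicate 1, at 56.6% to 76.4%.

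Both genes are close relatives: 36.6% of the 50-base windows of the annotated Klrc1 transcripts also occur in Klrc2 transcripts, and 12.4% of those of Klrc2 occur in Klrc1. Reads that map to both places may be left out by the counting, so the levels of Klrc1 and Klrc2 are uncertain. Per kilobase of exon, the ratio of Klrd1 to Klrc1 was 6.06, 3.22 and 4.52 in allograft replicates 1, 2 and 3, against 20.8, 12.1 and 12.9 in isograft replicates 1, 2 and 3. The CD94 transcript was thus above that of NKG2A in every library, by a smaller ratio in all 3 allograft libraries. The ratio was not tested.

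**Figure D2:**
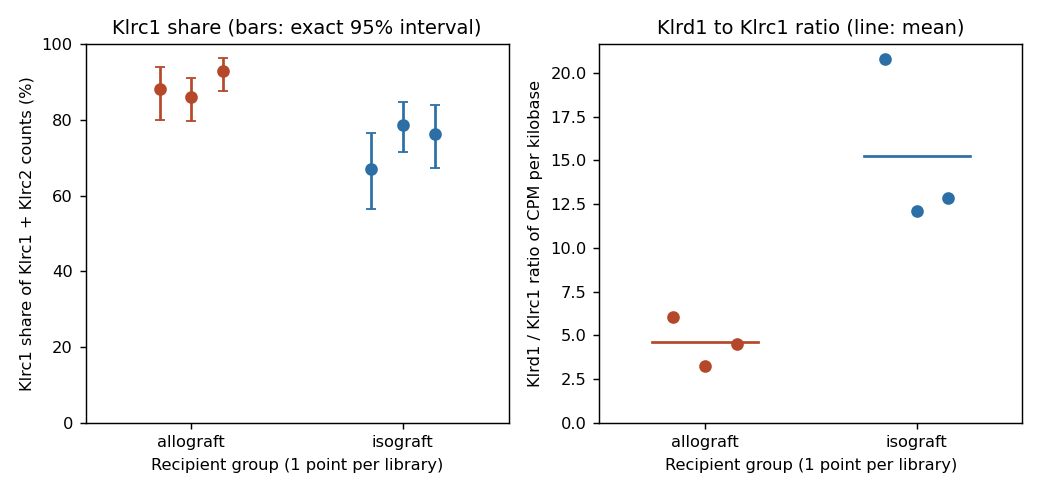
Left, the share of Klrc1 in the counts of Klrc1 and Klrc2, in percent, with the exact 95% interval of each library; right, the ratio of Klrd1 to Klrc1 CPM per kilobase, with a line at the group mean. Allograft libraries lie at 86.0% to 92.8% and at ratios of 3.22 to 6.06, and isograft libraries at 67.0% to 78.7% and at ratios of 12.1 to 20.8.

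The stretches just upstream of the genes are shown because the neighbours Klrc1 and Klrc2 differed in their share of counts between groups, and because a 6-letter word, TGTGGT, recurs in them. Promoter sequences from RefSeq (GRCm38.p6, 250 bases before to 50 after a gene's start) were searched for 6 of the 10 genes, Klrc1, Klrc2, Klrk1, Klrb1c, Klre1 and Ncr1. Klrd1, Klrg1 and Crtam had no match. Cd226 was left out of the search by name, so its absence here is a choice and not a failed match. The words searched on both strands were TGANTCA, which AP-1 factors bind, TGTGGT, which RUNX factors bind, AGGTGTG, which T-box factors bind, and GGAAAA, which NFAT factors bind. They stand in capitals below, so ACCACA and TTTTCC are TGTGGT and GGAAAA on the other strand, and no printed match overlaps another. Where several starts are listed the first is printed.
Klrc1, chr6:129678924-129679223, minus strand: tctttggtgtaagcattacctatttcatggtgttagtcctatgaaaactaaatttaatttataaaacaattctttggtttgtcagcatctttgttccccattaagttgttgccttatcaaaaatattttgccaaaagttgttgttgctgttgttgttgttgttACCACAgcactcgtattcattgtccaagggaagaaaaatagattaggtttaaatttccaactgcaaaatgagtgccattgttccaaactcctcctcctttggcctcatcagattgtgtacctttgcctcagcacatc
Klrc2, chr6:129660547-129660846, minus strand: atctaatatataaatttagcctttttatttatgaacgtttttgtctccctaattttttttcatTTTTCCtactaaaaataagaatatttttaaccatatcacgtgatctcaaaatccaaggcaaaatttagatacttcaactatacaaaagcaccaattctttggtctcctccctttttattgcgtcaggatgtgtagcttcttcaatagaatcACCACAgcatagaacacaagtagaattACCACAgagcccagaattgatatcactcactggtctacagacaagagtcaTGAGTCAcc
Klrk1, chr6:129623815-129624114, minus strand: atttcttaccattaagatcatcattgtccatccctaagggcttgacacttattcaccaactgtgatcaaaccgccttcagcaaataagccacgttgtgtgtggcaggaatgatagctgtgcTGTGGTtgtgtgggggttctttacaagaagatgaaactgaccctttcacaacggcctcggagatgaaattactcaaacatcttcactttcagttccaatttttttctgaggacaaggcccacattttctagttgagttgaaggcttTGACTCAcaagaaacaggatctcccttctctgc
Ncr1, chr7:4337465-4337764, plus strand: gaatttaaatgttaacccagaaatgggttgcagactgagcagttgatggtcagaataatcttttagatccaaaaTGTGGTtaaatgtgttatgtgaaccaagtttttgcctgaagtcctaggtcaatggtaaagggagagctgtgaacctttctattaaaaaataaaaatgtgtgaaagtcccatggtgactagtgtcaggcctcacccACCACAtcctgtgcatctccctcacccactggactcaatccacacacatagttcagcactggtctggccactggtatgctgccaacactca

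TGTGGT occurred in the first listed promoter of all 6 genes searched, with 1 match for Klrc1 and 2 for Klrc2. Cd226 was left out, so the count does not cover every gene that could have been searched. Klrc1 and Klrc2 are close relatives, the word was a reason for showing the sequences, and its share was not tested. The count of 6 also depends on the start taken, since the second listed start of Klre1 had 0 matches. Of 32851 promoters of the same length, 16.8% held it. TGANTCA occurred in 2 of the 6, Klrc2 and Klrk1, against 7.81% of all promoters. GGAAAA occurred in 1 of the 6, Klrc2, against 23.4%. AGGTGTG occurred in 0 of the 6, against 5.84%. A match describes letters in these windows and not binding.

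Klrk1, the gene of NKG2D, was nearly level. It had 16.4, 16.2 and 17.6 CPM in allograft replicates 1, 2 and 3, against 16.0, 13.3 and 15.9 CPM in isograft replicates 1, 2 and 3. The allograft libraries were all slightly above the isograft ones, and the log2 fold change of 0.15 did not pass (95% interval -0.08 to 0.38, edgeR adjusted p = 0.25). With library totals in place of TMM its sign turned, to -0.069 (adjusted p = 0.62). Klre1, whose product pairs with Klri receptors, had 8.78, 8.35 and 9.71 CPM in allograft replicates 1, 2 and 3, against 9.25, 9.27 and 9.39 CPM in isograft replicates 1, 2 and 3. Those ranges overlapped, and the log2 fold change was -0.06 (95% interval -0.32 to 0.21, edgeR adjusted p = 0.72). Its partners Klri1 and Klri2 did not pass either, with 1.53 ± 0.216 and 3.14 ± 0.808 CPM in allograft against 1.64 ± 0.222 and 2.40 ± 0.709 CPM in isograft libraries (SD, n = 3 each).

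Klrg1, a marker of terminal effector T and NK cells, had 1.47, 0.862 and 1.07 CPM in allograft replicates 1, 2 and 3, against 1.51, 1.87 and 1.37 CPM in isograft replicates 1, 2 and 3. The groups overlapped, and the log2 fold change of -0.48 did not pass (95% interval -1.13 to 0.17, edgeR adjusted p = 0.19).

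Klrb1c and Ncr1, the genes of NK1.1 and NKp46, did not pass in either direction. Klrb1c had 0.641, 0.655 and 0.604 CPM in allograft replicates 1, 2 and 3, against 1.27, 1.16 and 0.935 CPM in isograft replicates 1, 2 and 3, from 17 to 20 counts per allograft library and 30 to 47 per isograft library. All allograft libraries were lower, and the log2 fold change of -0.82 missed the threshold (95% interval -1.61 to -0.03 before adjustment, edgeR adjusted p = 0.069), which it passed with library totals (-1.04, adjusted p = 0.023). An annotated gene, Gm44511, covers 13.9% of its exon bases and had 0 counts, and 17% of the 50-base windows of its transcripts occur in other genes, so its level is uncertain. Ncr1 had 2.98, 5.31 and 3.70 CPM in allograft replicates 1, 2 and 3, against 2.39, 2.86 and 3.12 CPM in isograft replicates 1, 2 and 3. The groups overlapped, and the log2 fold change of 0.52 did not pass (95% interval 0.04 to 0.99 before adjustment, edgeR adjusted p = 0.058). Without allograft replicate 1 it was 0.68 and passed (adjusted p = 0.016).

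**Figure D3:**
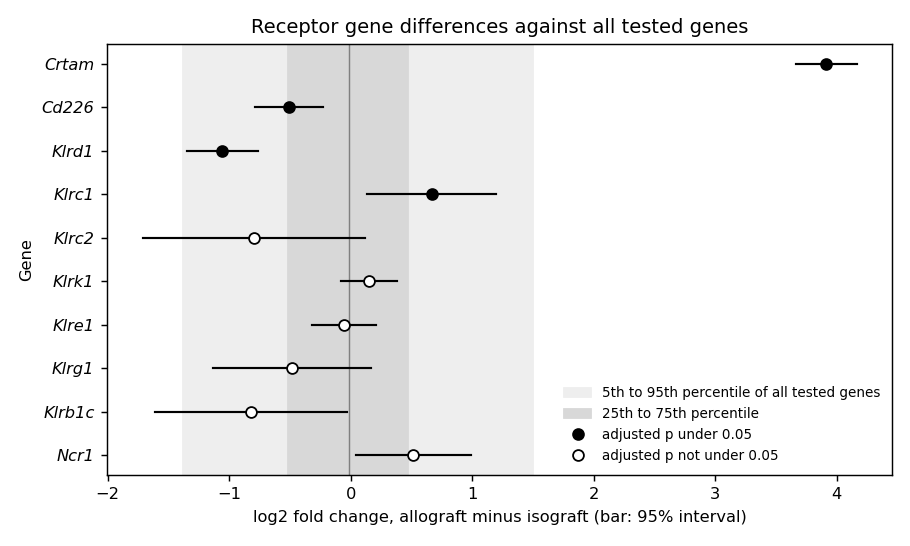
Log2 fold change, allograft minus isograft, of each receptor gene with its 95% interval before adjustment, filled where the adjusted p is under 0.05. Grey bands run from the 5th to the 95th and from the 25th to the 75th percentile of all 14926 tested genes: Crtam lies at 3.91, outside the wider band, and the other 9 genes lie inside it.

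Levels can be set side by side between genes only per length, as CPM per kilobase of exon. In allograft libraries Crtam led at 19.9 ± 0.291 CPM per kilobase, followed by Klrd1 at 9.03 ± 2.15 (SD, n = 3), and their libraries did not overlap. Ncr1, Klre1, Klrk1, Klrc1 and Cd226 followed at 2.60 to 1.98, each overlapping the next in the order, and Klrg1 at 0.802, Klrb1c at 0.214 and Klrc2 at 0.0862 stood apart from one another. In isograft libraries Klrd1 led at 18.8 ± 1.58 CPM per kilobase, and no other of the 10 genes exceeded the 2.82 ± 0.240 of Cd226 (SD, n = 3). Crtam, at 1.31 ± 0.289 CPM per kilobase, was then the sixth and overlapped its neighbours Ncr1 and Klrc1. The lowest were the same genes in both groups, with Klrb1c at 0.379 and Klrc2 at 0.150 CPM per kilobase in isograft libraries.

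Ligands of these receptors are also transcribed in spleen cells. Of 18 listed ligand genes 14 were matched and 10 tested, of which 3 rose and 2 fell, that is 5 of 10, against a background of 57.8%. With library totals 1 rose and 3 fell. Pvr, a ligand of CD226 and TIGIT, rose to 28.3 ± 1.55 CPM in allograft libraries, against 10.8 ± 0.429 CPM in isograft libraries (SD, n = 3 each), a log2 fold change of 1.38 ± 0.10 (SE, edgeR adjusted p = 5.7e-10). Nectin2, which the same receptors bind, averaged 0.843 CPM in allograft and 0.355 CPM in isograft libraries, and its call was lost without allograft replicate 1 (log2 fold change 0.61, adjusted p = 0.42), without any 1 isograft library, with library totals (adjusted p = 0.085), with limma-voom (0.075) and with no low-count filter (0.053). Ulbp1, the NKG2D ligand MULT-1, fell to 22.2 ± 4.30 CPM in allograft libraries, against 40.3 ± 1.495 CPM in isograft libraries, by 0.86 ± 0.11 on the log2 scale. H60b, another NKG2D ligand, fell to 0.426 ± 0.229 CPM in allograft libraries, against 1.68 ± 0.994 CPM in isograft libraries, where the groups overlapped. The annotated span of H60b lies inside that of Raet1e on the same strand. Exon bases shared by these genes were not checked, so the level of H60b is uncertain. Clec2d, a ligand of Klrb1 receptors, rose by 0.33 ± 0.09 to 34.1 ± 1.08 CPM in allograft libraries, a call that library totals ended (0.11, adjusted p = 0.32). H2-T23, the gene of Qa-1, did not pass at 611.1 ± 20.9 CPM in allograft and 622.2 ± 17.1 CPM in isograft libraries (log2 fold change -0.026, edgeR adjusted p = 0.76). Cadm1, the ligand of CRTAM, did not pass at 0.433 ± 0.230 CPM in allograft and 0.685 ± 0.200 CPM in isograft libraries, and H60c and Cdh4 had 0 counts in all 6 libraries.

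Of 6 other listed genes of the nectin-binding group 4 were tested, 0 rose and 3 fell, against 28.7% higher and 29.1% lower among all tested genes. The number that fell was 1 without allograft replicate 2 or isograft replicate 2, and 2 without allograft replicate 1 or isograft replicate 3, with RLE size factors or with DESeq2. Cd96, which binds PVR, fell to 8.94 ± 1.33 CPM in allograft libraries, against 16.1 ± 1.99 CPM in isograft libraries (SD, n = 3 each), by 0.84 ± 0.13 on the log2 scale. Nectin1 fell by 0.83 ± 0.29, a call lost without allograft replicate 2 (adjusted p = 0.10) or isograft replicate 2 (adjusted p = 0.073). Tigit fell by 0.34 ± 0.14, a call lost without allograft replicate 1 (adjusted p = 0.062) or 2 (0.24), without isograft replicate 2 (0.18) or 3 (0.068) and with RLE size factors (0.0503) or DESeq2 (0.061).

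Signalling partners moved both ways: of 15 listed genes all were tested, 4 rose and 6 fell, 66.7% of them against 57.8% of all genes. Hcst and Tyrobp, the adaptors DAP10 and DAP12, did not pass. Hcst averaged 4.60 ± 0.321 CPM in allograft and 3.90 ± 0.137 CPM in isograft libraries (log2 fold change 0.24, edgeR adjusted p = 0.25), and Tyrobp 5.28 ± 0.619 and 4.46 ± 0.988 CPM (0.24, adjusted p = 0.27; SD, n = 3 each). Fcer1g, the adaptor of NKp46, rose by 0.51 ± 0.18 (SE), a call lost without allograft replicate 1 (0.21, adjusted p = 0.28) or isograft replicate 1 (0.41, adjusted p = 0.10) and with library totals (0.29, adjusted p = 0.17). Cd247, the zeta chain that T cell receptors and NKp46 use, fell to 148.6 ± 4.02 CPM in allograft libraries, against 379.2 ± 22.2 CPM in isograft libraries, by 1.35 ± 0.07 on the log2 scale.

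The kinase gene Zap70 rose by 1.18 ± 0.07 and its relative Syk fell by 0.57 ± 0.07 on the log2 scale, B cells expressing Syk as well. Ptpn6 and Ptpn11, the phosphatases SHP-1 and SHP-2 that inhibitory receptors recruit, rose by 0.72 ± 0.08 and 0.44 ± 0.07, and Inpp5d, the phosphatase SHIP-1 that KLRG1 recruits, fell by 0.78 ± 0.07. Sh2d1a, the adaptor SAP, fell by 1.45 ± 0.17 and Plcg2, a phospholipase of NK and B cells, by 0.50 ± 0.08. Scrib, the polarity protein that CRTAM recruits, was called lower at -0.18 ± 0.07. That call was lost without allograft replicate 2 (adjusted p = 0.061) or 3 (0.12), without isograft replicate 2 (0.089) or 3 (0.19) and with RLE size factors (0.056) or DESeq2 (0.061).

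**Figure D4:**
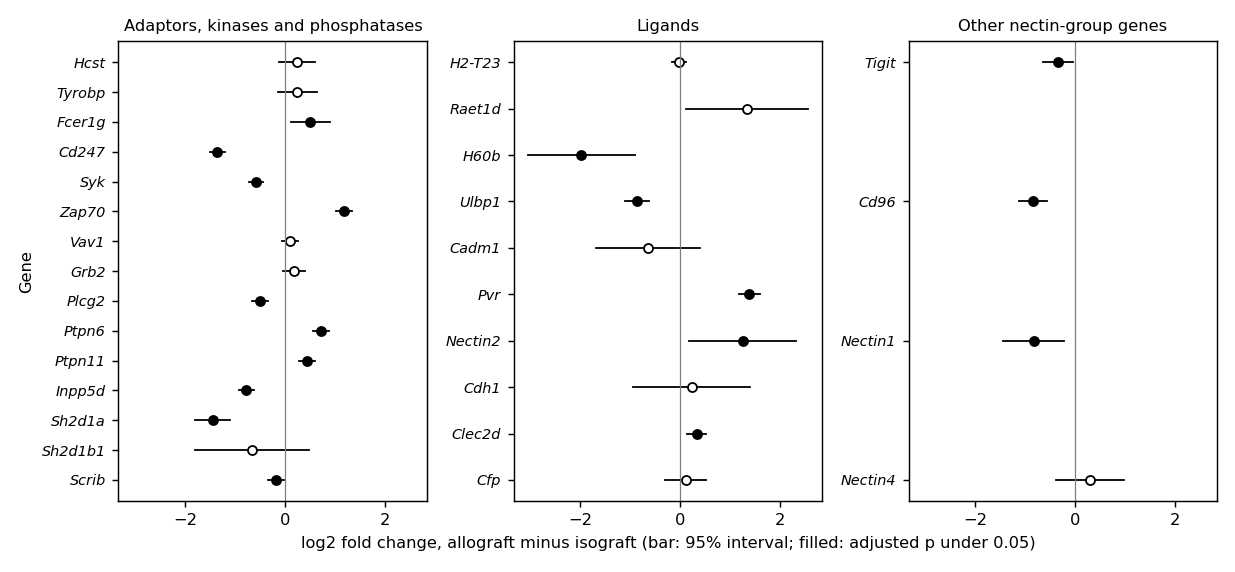
Log2 fold change, allograft minus isograft, with its 95% interval before adjustment for the tested genes of 3 lists: signalling partners, ligands and other nectin-group genes, filled where the adjusted p is under 0.05. Cd247 at -1.35 and Zap70 at 1.18 lie on opposite sides of 0, Pvr lies at 1.38, and the 3 filled nectin-group genes lie below 0.

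Of 21 other listed lectin-like genes of the NK gene complex 15 were tested, and 1 rose and 2 fell, 20% of those tested against 57.8% of all genes. Most had low counts: only 2 of them, Cd69 and Clec2i, had at least 5 CPM in 3 libraries, and with that filter both were called, 1 higher and 1 lower. The one that rose was Cd69, an early activation antigen that T and B cells share, by 3.36 ± 0.08 on the log2 scale. Klrb1f fell by 0.89 ± 0.28 and Clec2i, a ligand gene in the same complex, by 0.57 ± 0.08. The Klra genes, which encode the Ly49 receptors of NK cells, had 0 calls among the 9 tested, with adjusted p from 0.058 for Klra1 to 0.99 for Klra2. By unadjusted p under 0.05, Klra1 alone was past that level.

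Markers of the cells that carry these receptors stand beside the changes. Of 19 NK cell markers outside the 10 genes, all were tested, 8 rose and 2 fell, 52.6% of them against 57.8% of all genes, and their summed level was 407.4 to 429.0 CPM in allograft and 201.2 to 213.9 CPM in isograft libraries, with no marker at 0. The 3 with the smallest p were Gzmb, granzyme B, Xcl1, a chemokine, and Prf1, perforin, which activated T cells also express and which rose by 2.85 ± 0.09, 4.77 ± 0.17 and 1.53 ± 0.10. Gzmb alone had 144.4 ± 7.43 CPM in allograft and 20.02 ± 2.13 CPM in isograft libraries, and so held much of the difference in the sum. Those that fell were Gzma, granzyme A, by 0.39 ± 0.10 and Txk, a kinase that T cells also express, by 0.93 ± 0.10. The Ly49 genes Klra7 and Klra4 did not pass, with 3.94 ± 0.473 and 3.29 ± 0.590 CPM in allograft against 3.30 ± 0.688 and 3.73 ± 1.13 CPM in isograft libraries (SD, n = 3 each). Of 10 NKT and gamma delta T cell markers 8 were tested, 1 rose and 3 fell, 4 of 8 against 57.8% of all genes, with summed levels of 67.9 to 75.3 CPM in allograft and 99.6 to 113.6 CPM in isograft libraries. Slamf6, which many other T cells carry, made up most of that and fell by 0.78 ± 0.09, and Cd163l1 fell by 1.09 ± 0.23. Tcrg-C1 fell narrowly (edgeR adjusted p = 0.048), and the marker that rose was the adaptor gene Fcer1g. The number that rose was 0 with library totals and without allograft or isograft replicate 1, and 2 without isograft replicate 3. The number that fell was 2 with DESeq2, limma-voom or non-robust estimation and with some libraries left out.

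Of 6 CD8 T cell markers 5 were tested, 3 rose and 1 fell, 80% against 57.8% of all genes, or 1 rose and 1 fell with library totals, with summed levels of 272.6 to 322.6 CPM in allograft and 295.0 to 305.2 CPM in isograft libraries. Cd8b1, the CD8 beta chain, had 103.6 ± 7.13 CPM in allograft and 152.2 ± 10.9 CPM in isograft libraries, and Cd8a 81.8 ± 6.90 and 68.3 ± 1.94 CPM. The rise of Cd8a was lost without allograft replicate 1 (0.18, adjusted p = 0.054) and with library totals (0.04, adjusted p = 0.68). Nkg7, a granule protein gene, rose to 4.63 ± 0.781 CPM in allograft libraries, against 1.54 ± 0.262 CPM in isograft libraries. Of 4 CD4 T cell markers all were tested, 2 rose and 1 fell, 75% against 57.8% of all genes, with Cd4 at 71.2 ± 4.99 CPM in allograft and 211.4 ± 18.5 CPM in isograft libraries and summed levels of 156.2 to 182.4 and 243.2 to 284.3 CPM. Those that rose were Cd40lg, the CD40 ligand of activated helper cells, by 2.95 ± 0.12 and Foxp3, the factor of regulatory T cells, by 0.76 ± 0.15 on the log2 scale. The part of these shifts in the levels of the 10 receptor genes was not tested.

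For Klrd1, the gene with the highest mean CPM after Crtam, the genes of the most similar pattern over the 6 libraries were Thada, Rpgrip1l, Trbv16, a T cell receptor variable segment, Acox3, a peroxisomal oxidase, and Bbs2, a cilium gene. Their distances ran from 0.154 to 0.239 and their log2 fold changes from -1.12 to -0.94. Trbv16 averaged 9.95 CPM in allograft and 21.7 CPM in isograft libraries.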

How the data were processed

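Per the file headers, the authors made the deposited counts with featureCounts 1.6.0, by read pair, from exons of Ensembl release 104 (GRCm39) grouped by gene. The version of HISAT behind the alignments is not stated there. GRCm38 and mm10 are the builds in the submitters' processing notes. The positions of genes follow the count files (GRCm39), and promoters carry their own build. The deposited values are whole-number counts with no normalization, and the recorded command sets no strand or multi-mapping option. Of 55416 Ensembl IDs, 52083 had a symbol.

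Genes were kept by edgeR's filterByExpr, which left 14926 genes holding 99.92% of the counts, and scaled by TMM. edgeR's robust quasi-likelihood test, with Benjamini-Hochberg adjustment over all tested genes and a threshold of 0.05, compared allograft with isograft libraries. The SE equals the absolute log2 fold change over the root of the F statistic. Log2 CPM for pattern searches used a prior count of 2. The procedure was tested on simulated counts in which few genes changed, as many up as down, with 1 dispersion for all genes. That does not test the scaling where many genes differ, as they do here. Alternatives were RLE factors, library totals, DESeq2, limma-voom, non-robust estimation, other filters, the replicate number as a block and each library left out. The tools were edgeR 4.0.16, limma 3.58.1 and DESeq2 1.42.0, under R 4.3.3.

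The members and lists were chosen with earlier results of these data known. All 10 members are named. From each other list up to 3 genes with the smallest p are named, with every called ligand and signalling partner. H2-T23, Cadm1, H60c, Cdh4, Hcst, Tyrobp, Cd3e, Gzma, Txk, Tbx21, Klri1, Klri2 and the Klra genes were added for their roles after their values were seen. Tcrg-C1, also called lower among the NKT and gamma delta T cell markers, was added as well. The labels do not state that replicates are different animals, and the p-values then speak only of variation among these 6 libraries, some of which may be technical. Pairs of libraries of 1 group differed by 10.2 to 21.7 in chi-square per degree of freedom, more than counting noise gives, so no pair looked like 1 library under a pair of names. This does not tell separate animals from separate preparations.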

Additional observations from a re-analysis of the deposited data

How the results depend on the processing

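Over 14 alternatives, Crtam, Klrd1 and Cd226 kept direction and call in all 42 values, with log2 fold changes of 3.69 to 4.11 for Crtam, -1.28 to -0.95 for Klrd1 and -0.73 to -0.45 for Cd226. Of 135 values for the 10 genes, 126 kept both, 8 changed the call (6 for Klrc1, 1 for Klrb1c, 1 for Ncr1) and 1 reversed, Klrk1 at -0.069 with library totals. The number of the 10 genes called higher was 2 in the test as reported, and 1 with library totals, with limma-voom and with at least 5 CPM in 3 libraries, a filter that only 5 of the 10 genes pass. It was 1 to 3 over the 6 libraries left out in turn. The number called lower was 3 with library totals and 2 in every other alternative. Library totals moved the median log2 fold change of all genes by -0.22, so that 2973 genes were called higher and 6093 lower, against 4283 and 4349 with TMM. The difference in the Klrc1 share was 11.5 to 17.3 percentage points with each library left out and 6.73 with counts divided by gene length. Replicate numbers did not pair the libraries: deviations of libraries with the same number correlated across genes at -0.063, 0.0029 and -0.034, and no allograft library correlated best with its own number. With the replicate block, 2 of the 10 genes were called higher and 2 lower, and 4064 and 4152 of all genes. Under it Fcer1g (adjusted p = 0.061), Scrib (0.092), Nectin2 (0.093) and Tigit (0.069) were not called. Of the other named genes 44 were followed singly. Tcrg-C1, the genes added for their roles, such as Gzma, Txk and Tbx21, and those named for a similar pattern were not. Of the 610 values for the 44 genes 31 lost the call, those of 7 genes, and 0 reversed. Apart from the filter, which tests fewer genes, the cause of these changes was not tested. Low counts limit Klrc2, Klrb1c and Klrg1, and a lowest count of 11 leaves wide intervals.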

Other observations

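Transcription factors of cytotoxic lymphocytes, several of which are known to control receptor genes of this kind, were mostly higher in allograft libraries. Of 10 listed genes 9 were tested, and 7 of them rose while 0 fell. Their median log2 fold change was 0.69, against -0.01 for all genes tested, of which 28.7% were called higher. The list was chosen with earlier results of these data known, so this share describes these genes and was not tested against the background. Eomes, a factor of NK and memory CD8 T cells, averaged 36.8 ± 4.71 CPM in allograft and 13.2 ± 2.10 CPM in isograft libraries (SD, n = 3 each), a log2 fold change of 1.48 ± 0.12 (SE). Nfil3, a factor needed for NK cell development, rose by 1.58 ± 0.14, and Bhlhe40, a factor of activated T cells, by 1.72 ± 0.08. Tbx21, the gene of T-bet, averaged 106.2 ± 18.2 CPM in allograft and 9.22 ± 2.46 CPM in isograft libraries. With library totals 5 of the 9 rose.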
